A study of Mus musculus with 6 samples.

Results

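Metabotropic glutamate receptors were measured in the cortex and the thymus of adult B10D2 mice, an inbred strain, on an array of spotted oligonucleotides designed around neurotransmission. The family was taken as every spot that the array files print under the class of metabotropic receptors. That class comprised 5 of the 290 gene entries on the array and 9 of its 590 oligonucleotides (oligos), each spotted in duplicate. Of these, 3 entries with 5 oligos and 10 of the 1192 gene spots are reported here. Grm7 and Grm8 each had 2 oligos, and Grm5 had 1.

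Each tissue was a single RNA pool, from 6 cortices or from 5 thymi, and no treatment or genotype besides the strain is named. Of each pool, 15 µg of total RNA was labelled with the dye Cy5 and hybridized to each of 3 arrays, so that every array carried 1 tissue. The arrays of a tissue are therefore repeats of 1 pool, and the p-values given here measure the spread between hybridizations, not between animals. The title of the series concerns hybridization kinetics on the chip, and the labels state no question for the contrast of the tissues.

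Metabotropic glutamate receptors are G protein-coupled receptors of class C that bind glutamate in a large extracellular domain and act as dimers. Group I, to which Grm5 belongs, couples mainly to Gq and phospholipase C and raises intracellular calcium, mostly at postsynaptic sites. Groups II and III, the latter with Grm7 and Grm8, couple to Gi and Go, lower cyclic AMP and, at presynaptic terminals, reduce transmitter release. In the brain Grm5 is also found in astrocytes, and expression of members of the family has been described in thymic and other lymphoid cells.

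The names used here rest on the printed class and name of each spot. None of the accessions printed for the 5 oligos was in the mouse RefSeq table used for names (0 of 5 matched). The sequences of the oligos were not used here.

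In cortex RNA nearly all of the 5 oligos gave signal, and in thymus RNA 2 to 4 of them did. A spot was counted as above background where its median intensity exceeded the local background by 2 SD of that background, and an oligo where most of its unflagged spots did. On the cortex arrays 5, 5 and 4 of the 5 oligos were above background, and on the thymus arrays 3, 4 and 2. Counted by spot, 28 of 30 spots in cortex and 19 of 28 unflagged spots in thymus were above background. Among all 590 oligos, 509, 478 and 419 passed on the cortex arrays and 393, 270 and 282 on the thymus arrays, so the thymus arrays gave fewer detected probes across the whole design. The median net signal of all gene spots was 2542.25, 1762.75 and 829.75 on the cortex arrays and 955.5, 480.25 and 599 on the thymus arrays, and the part of this difference in the counts of the receptors was not tested. Of the unflagged blank spots, 4 to 6 of 123 to 126 per cortex array and 8 of 120 to 126 per thymus array met the same criterion.

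**Figure D1:**
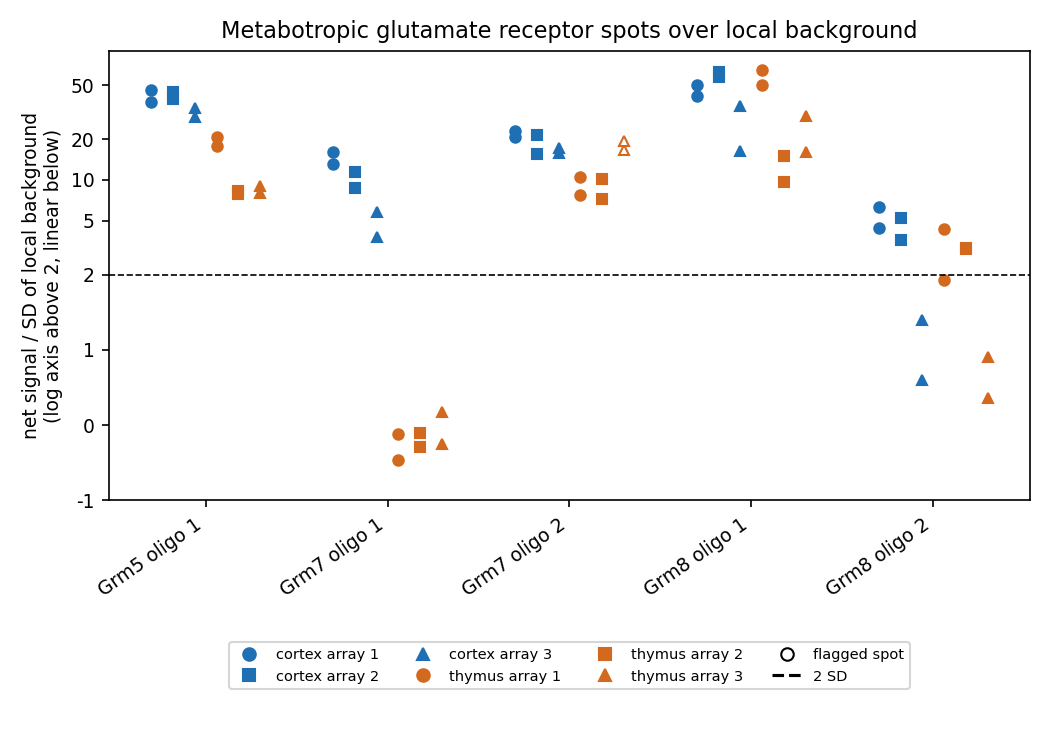
Net signal of each spot (spot median minus local background median) divided by the SD of the local background, for the 5 oligos in cortex (blue) and thymus (orange), with the array by symbol and spots flagged by the scanner software open. The axis is logarithmic above 2 and linear below it. All thymus spots of Grm7 oligo 1 lie near 0, whereas those of Grm5 and of Grm8 oligo 1 all lie above the dashed line at 2 SD.

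Only Grm7 oligo 1, 1 of the 5 oligos, was above background on all 3 cortex arrays and on no thymus array. Across the array 11.2% of the 590 oligos had that pattern. Another 2, Grm5 and Grm8 oligo 1, were above background on all 6 arrays, as were 31.5% of all oligos. The remaining 2 were detected on some thymus arrays, Grm7 oligo 2 on 2 arrays and Grm8 oligo 2 on 1.

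After quantile normalization, 1 of the 5 oligos, Grm7 oligo 1, was higher in cortex at an adjusted p below 0.05 and 0 were higher in thymus, by limma with Benjamini-Hochberg adjustment over all 465 tested probes. Of all tested probes 24.3% were called higher in cortex and 23.7% higher in thymus, and the 1 of 5 stands near that share. At an unadjusted p below 0.05 in the same limma fit 0 were higher in thymus as well. All 5 oligos were tested, but Grm7 oligo 1 had passed the filter on dim probes only through its cortex arrays. In 2 of the 5, Grm5 and Grm7 oligo 1, every cortex array lay above every thymus array, a pattern of 26.5% of tested probes. In 0 of the 5 did every thymus array lie above every cortex array, as it did for 29.2% of tested probes. The median difference of the 5 was -0.10 on the log2 scale, and that of all tested probes was also -0.10. Since tissue RNA was hybridized, fewer cells of a type and less receptor RNA per cell cannot be told apart in any of these values.

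**Figure D2:**
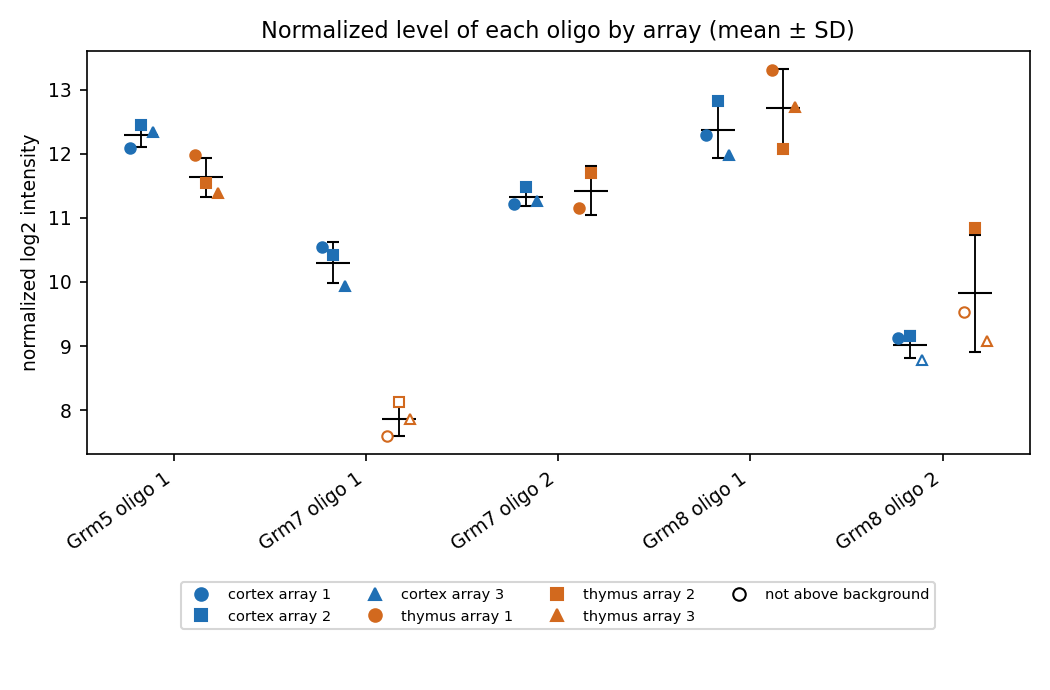
Normalized log2 intensity of each oligo on the 3 cortex arrays (blue) and the 3 thymus arrays (orange), with mean and SD over arrays. Open symbols mark arrays on which the oligo was not above background. Cortex and thymus do not overlap for Grm5 and Grm7 oligo 1. Heights of different oligos are not comparable.

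Grm5, a group I receptor that is abundant in forebrain neurons, was well above background in both tissues. Its only oligo gave 12.09, 12.45 and 12.34 in cortex and 11.97, 11.55 and 11.38 in thymus. Net signals before scaling were 10428.5, 9665.5 and 3228.2 in cortex and 3810.5, 1442 and 1370 in thymus, hence measurable on every thymus array. The lowest cortex array and the highest thymus array, which are the pair scanned on the same day, were close to each other. The difference was 0.66 ± 0.35 (95% confidence interval -0.08 to 1.39), which did not pass with an adjusted p of 0.136. When arrays were centred on control genes in place of quantile normalization, it was 1.29 with an adjusted p of 0.0206.

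Of the group III receptors, Grm7, a low-affinity receptor of presynaptic active zones, was higher in cortex with oligo 1 but did not pass the test with oligo 2. Oligo 1 gave 10.55, 10.41 and 9.93 in cortex and 7.60, 8.13 and 7.87 in thymus. Its net signals were 3122.5, 2021.5 and 663.5 in cortex and -61.2, -36.8 and -12.2 in thymus, so the thymus spots were on average no brighter than the glass around them. The difference was 2.43 ± 0.36 (95% confidence interval 1.69 to 3.18) with a limma adjusted p of 4.11e-05, and since the thymus level was not above background the intensities give only a bound, at least 1.48-fold higher in cortex. This bound sets the mean of the cortex arrays against a level on each thymus array. That level is the higher of the oligo's own value and the lowest value of any oligo counted as above background there. The size of the difference depended on the background correction, at 4.74 with none and 7.50 with plain subtraction. Plain subtraction gave every spot at or below its background a fixed minimum, so 7.50 depends on that minimum and is not a measured size.

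Oligo 2 of Grm7 gave 11.22, 11.48 and 11.26 in cortex and 11.15 and 11.69 on thymus arrays 1 and 2, while both its spots on thymus array 3 were flagged and gave no value. The 2 thymus values lay on either side of those of cortex. The difference was -0.10 ± 0.40 (n = 3 and 2, 95% confidence interval -0.95 to 0.74) with an adjusted p of 0.872. Unscaled net signals were 5618.2, 4820.2 and 1750.8 in cortex and 2060.8 and 1563 in thymus. The flagged spots on thymus array 3 had net signals of 2865 and 4615.5. With flagged spots kept, the difference was -0.51 with a limma adjusted p of 0.323. The segmented area of its spots was 262 and 201 pixels on cortex array 1 but 11 and 16 pixels on thymus array 2, and the flagged spots on thymus array 3 covered 10 and 12 pixels. The median area of all gene spots was 156, 32 and 96 pixels on those arrays in turn, so pixel areas do not compare directly between arrays. On cortex array 3, with a median of 37, the spots of this oligo covered 70 and 52 pixels. Small areas were not confined to this oligo. On cortex array 3 the spots of Grm7 oligo 1 covered 56 and 11 pixels, with net signals of 414.5 and 912.5. Grm8 oligo 2 had a spot of 11 pixels on cortex array 2 and on thymus array 1. The part of spot size in the signals of either tissue was not tested.

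Grm8, another presynaptic group III receptor, did not pass the test with either oligo. Oligo 1 gave 12.29, 12.83 and 11.98 in cortex and 13.31, 12.08 and 12.73 in thymus. It was above background on all 6 arrays, and the tissues overlapped, with thymus array 1 the highest. The difference was -0.34 ± 0.39 (95% confidence interval -1.17 to 0.49) with an adjusted p of 0.514. Its sign turned with the scaling, to 0.57 without scaling and 0.18 with centring on control genes.

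Oligo 2 of Grm8 was the dimmest in cortex relative to its background, and it was the oligo missing on cortex array 3. It gave 9.13, 9.15 and 8.78 in cortex and 9.53, 10.85 and 9.09 in thymus. Only thymus array 2 stood clearly above the cortex arrays and above background. The difference was -0.80 ± 0.42 (95% confidence interval -1.69 to 0.09) with an adjusted p of 0.133, and it was 0.05 without scaling. Without thymus array 3 it was -1.17 with an adjusted p of 0.0215, and without thymus array 2, with the filter of all 6 arrays kept, -0.29 with an adjusted p of 0.604.

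Whether the oligos of a gene differed between the tissues was then tested directly, as the change in oligo 1 minus oligo 2 from thymus to cortex, an analysis chosen after the values were seen. Of the 2 genes with 2 oligos 1 passed, Grm7, while 26.5% of the 185 entries tested on the array passed in the same limma fit. For Grm7 the change was 2.54 ± 0.51 (95% confidence interval 1.46 to 3.61), with an adjusted p of 0.00157, and it rested on 2 thymus arrays. It was 5.62 with no background correction and 8.49 with plain subtraction, the latter again dependent on the fixed minimum. Oligo 1 of Grm7 was not above background in thymus and had passed the filter only through cortex. Its thymus level is only a bound, and the size and adjusted p of the change rest on that level. The oligos of Grm8 differed by 0.46 ± 0.58 (95% confidence interval -0.75 to 1.67), which did not pass with an adjusted p of 0.581.

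**Figure D3:**
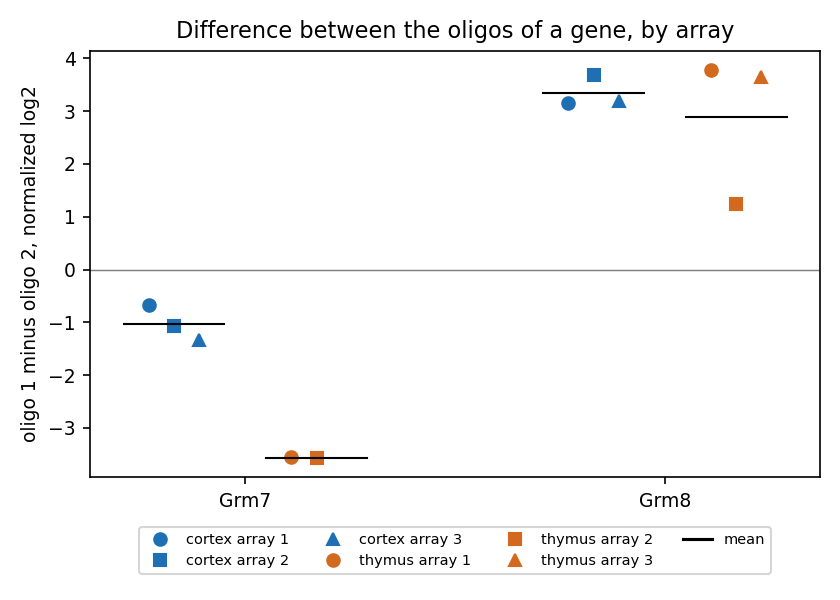
Oligo 1 minus oligo 2 of the same entry on each array, in normalized log2 units, for cortex (blue) and thymus (orange), with means as lines. Only the shift between tissues within an entry can be read, because oligos differ in how they hybridize. The shift is 2.54 for Grm7, with 2 thymus arrays on which its oligo 1 was not above background, and 0.46 for Grm8.

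The scaling of the arrays moved every value of the receptors. Without scaling, the median difference of all tested probes was 0.86, and that of the 5 oligos 0.90. With arrays centred on control genes these medians were 0.48 and 0.78. Grm7 oligo 1 was higher in cortex by 3.05 without scaling and by 2.66 with centring, and it passed under both. Without scaling this 1 of 5 compares with 25.2% of all tested probes called higher in cortex. Centring added Grm5, so that 2 of 5 oligos were called higher in cortex where 30.5% of all tested probes were. Grm7 oligo 2 turned from -0.10 to 0.90 without scaling, close to the median of all probes under that setting.

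**Figure D4:**
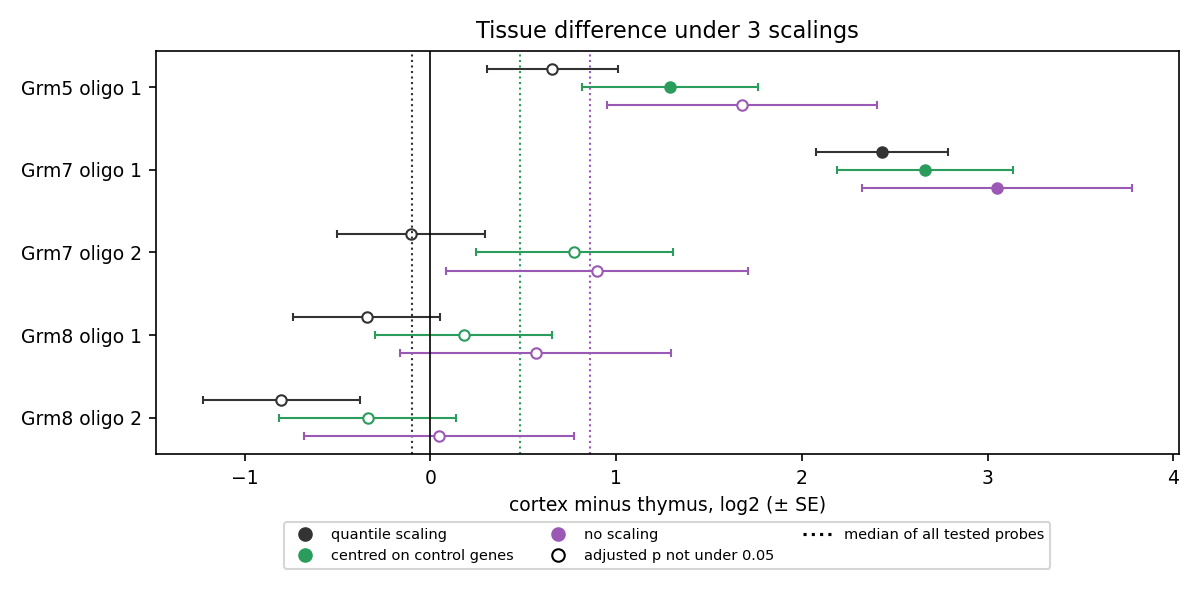
Cortex minus thymus difference of each oligo in log2 units, with its SE, under quantile scaling (black), centring on control genes (green) and no scaling (purple). Filled points passed an adjusted p of 0.05, and dotted lines mark the median of all tested probes at -0.10, 0.48 and 0.86. Grm7 oligo 1 is filled under all 3, and the oligos of Grm8 under none.

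The arrays fell into 3 groups by a number pair in the image names of the file headers, read here as the scan setting. Cortex arrays 1 and 2 shared setting 1 with thymus array 1, and cortex array 3 shared setting 2 with thymus array 2. Thymus array 3 shared neither. Within settings 1 and 2, in that order, Grm7 oligo 1 was higher in cortex by 2.88 and 1.81. Grm5 differed by 0.29 and 0.79, so the direction of both was the same in both settings. Grm7 oligo 2 differed by 0.20 and -0.43, so its direction was not, while both oligos of Grm8 were lower in cortex in each, by -0.75 and -0.10 for oligo 1 and by -0.39 and -2.07 for oligo 2.

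Other genes of glutamate signalling were read from lists. For the ionotropic receptors, the ligand-gated channels for glutamate, 13 of 18 listed genes were on the array, and 16 of 27 tested oligos were higher in cortex and 0 higher in thymus, with a median difference of 1.34, where 24.3% of all tested probes were higher in cortex and 23.7% higher in thymus. Of these 16, 6 were above background on no thymus array. Without 1 cortex array the filter left 20, 20 and 21 oligos to test and 7, 8 and 10 were higher in cortex, for cortex arrays 1, 2 and 3 in turn, and with detection on all 6 arrays 3 of 4 were. Both oligos were higher in cortex for the AMPA receptor subunit Gria3, by 1.78 ± 0.37 (adjusted p 0.000817) and 1.68 ± 0.50 (adjusted p 0.0106), and for the NMDA receptor subunit Grin2b, by 1.34 ± 0.36 (adjusted p 0.00581) and 2.92 ± 0.52 (adjusted p 0.000261). Oligo 2 of Grin2b was above background on no thymus array and had passed the filter only through cortex, so its level gives a bound of at least 4.16-fold. An entry printed as glur5p, which its accession gives as the kainate receptor subunit Grik5 although the printed name points to another subunit, gave -0.75 ± 0.57 (adjusted p 0.304) and 2.13 ± 0.40 (adjusted p 0.000332). Of glutamate transport and synthesis 1 of 11 listed genes was present, Slc1a3, the astrocytic glutamate transporter. Its oligo 2 was higher in cortex by 1.76 ± 0.39 (adjusted p 0.00128), and oligo 1 differed by 0.76 (adjusted p 0.117). Oligo 1 was above background on no thymus array and had passed the filter only through cortex, so the size of its difference was not measured.

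Of channels and kinases linked to these receptors 3 of 7 listed genes were present, all of them G protein-gated potassium channel subunits, and of 5 tested oligos 3 were higher in cortex and 1 in thymus, beside the same 24.3% and 23.7% of all tested probes. Without cortex array 1 or cortex array 2, 1 of 4 tested oligos was higher in cortex, and with detection on all 6 arrays 0 of 1. Without scaling and with centring on control genes 0 were higher in thymus. Kcnj3 was higher in cortex with both oligos, by 1.51 ± 0.35 (adjusted p 0.00212) and 2.24 ± 0.41 (adjusted p 0.000323). Its oligo 1 was above background on no thymus array and had passed the filter only through cortex, which gives a bound of at least 2.30-fold. The oligos of Kcnj6 passed in opposite directions, at -1.06 ± 0.34 (adjusted p 0.0163) and 0.90 ± 0.36 (adjusted p 0.0461). The tested oligo of Kcnj9 differed by -0.01 (adjusted p 0.992). The lists of G protein partners, of scaffold proteins and of other class C receptors had no probe.

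Markers of the cell types of both tissues were read beside these values. The neuronal list had 2 of 9 genes on the array by accession, Eno2 and Gad2, with 2 of the oligos counted as Gad2 printed under the name of its paralogue. Of its oligos 5 of 6 were higher in cortex, where 24.3% of all tested probes were higher in cortex and 23.7% higher in thymus. Among the 5, oligo 2 printed as gad65 and oligo 2 printed as GAD67 were above background on no thymus array. Both had passed the filter only through cortex, with bounds of at least 5.55-fold and 1.62-fold. The summed net signal of the list was 32801.8 to 70811 on the cortex arrays and 3008.8 to 4966 on the thymus arrays, with 1 missing value left out of the sums. For astrocytes, Slc1a3 alone was present, and its oligos summed to 5507.8 to 14164.8 in cortex and 673.8 to 2065 in thymus, where oligo 1 was above background on no array. The oligos of the oligodendrocyte gene Mbp summed to 27931.2 to 68959.5 and 3443 to 6863, and they passed in opposite directions, at 3.66 and -1.44. On 1 array an oligo of Mbp had no value, so the sum there covers the other oligo alone. Of 10 thymocyte markers only Kcna3, a potassium channel of lymphocytes, was present. Both its oligos were higher in thymus, at -2.01 ± 0.39 (adjusted p 0.000432) and -1.63 ± 0.46 (adjusted p 0.00815), and their net signals summed to 1061.5 to 2663.8 in cortex and 2117.5 to 5138.2 in thymus. The B cell gene Pax5 gave -0.30 (adjusted p 0.543) and -2.33 ± 0.35 (adjusted p 5.17e-05), with summed net signals of 618 to 2669.2 in cortex and 1369.2 to 3002.5 in thymus. The calls in thymus depended on the scaling. Without scaling, 0 oligos of Kcna3, Pax5 or Mbp were called higher in thymus. With centring on control genes, 1 of 2 was for Kcna3, 1 of 2 for Pax5 and 0 of 2 for Mbp. The part of cell composition in the receptor values was not tested.

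The probes of other genes whose normalized levels ran most like those of the receptors were picked by Pearson correlation over the 6 arrays, up to 2 for each oligo with 6 values. The points share arrays and fall into 2 tissues, so these correlations are descriptions. Some values were also not above background. Grm7 oligo 1 was above background on no thymus array, and Grm8 oligo 2 on only 2 cortex arrays and 1 thymus array. Grm7 oligo 1 ran most like Htr2c oligo 2 (r = 0.997), for a serotonin receptor, and Kcnd2 oligo 2 (r = 0.993), for a neuronal potassium channel. For Grm5 it was an entry printed as accn1 (r = 0.977). Grm8 oligo 1 ran most like entries printed as Myln.1 (r = 0.949) and scnn1g (r = 0.947). The probes most like Grm8 oligo 2 were an entry printed as shal1 (r = 0.980) and oligo 2 of Tgfb1 (r = 0.950), a cytokine gene.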

How the data were processed

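Scanner output of 6 single-colour arrays was used, 3 per tissue, grouped by sample title. The values are spot intensities as deposited, on a linear scale and not normalized. Per the file headers each spot has a local background, a segmented area in pixels (another deposited value) and a flag score. Scan settings were read from a number pair in the image names of the file headers. The name of the software that quantified the spots was not given. The number of arrays limits the precision.

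Medians were background-corrected (normexp, offset 50) on all 1568 spots in limma 3.58.1 under R 4.3.3. Flagged and control spots were dropped, spots of an oligo averaged on the log2 scale, and arrays quantile-normalized. The control genes used for centring were not among the dropped control spots. They were gene probes printed under the class of controls and were kept among the gene probes. Centring gave all arrays the same median of these probes. A probe was tested if it was above background on 3 or more of the 6 arrays and had 2 or more values in each tissue. The fit used lmFit and eBayes, two-sided, with Benjamini-Hochberg adjustment over all 465 tested and a threshold of 0.05. Oligos of a gene were kept apart. No value was set against that of another oligo except as a change between tissues.

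Names came from the printed class and name or from the RefSeq table of GRCm38.p6. Some items of the printed class, and some probes picked by the rules below, are not reported here. Text named the other oligos of the class, members of the lists past the threshold or beside one, marker probes, and up to 2 most alike probes. The receptors, lists and tests were chosen with earlier results of these data known. The test of oligo pairs, the fits without the 2 coarse-grid arrays and those with the filter of all 6 arrays kept were chosen after seeing the data. The coarse-grid arrays were cortex array 3 and thymus array 2, which had the smallest median areas of gene spots.

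Same-numbered arrays of the tissues did not consistently deviate together (r of 0.161, -0.088 and 0.026 over 440 probes), so numbers were not used as pairs. Pairs that shared a scan setting had the highest r of all pairs. It was 0.161 for cortex array 1 and 0.163 for cortex array 2, each with thymus array 1. For cortex array 3 with thymus array 2 it was 0.186. Scan setting was not in the main fit and was used as a block in an alternative. On simulated data (465 probes, 200 changed, 20 simulations) the fit called 46.95% of 2-fold and 98.85% of 4-fold changes, and 2.38% of calls were false. The simulated probes all had the same SD, balanced changes and no undetected values, so these rates are not error rates of the calls here. Python 3.11.15 with pandas 2.3.3, numpy 2.4.6 and matplotlib 3.10.9 made the tables and figures.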

Additional observations from a re-analysis of the deposited data

How the results depend on the processing

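Grm7 oligo 1 kept its direction and its call in each of the 24 alternatives in which it was tested. It had passed the filter only through its cortex arrays. It was not tested with detection on all 6 arrays, without the coarse-grid arrays, or on leaving out a cortex array under the filter on 3 arrays. Its size moved from 2.43 to 4.74 with no background correction and 7.50 with plain subtraction, as that of its oligo pair did from 2.54 to 5.62 and 8.49. The values with plain subtraction depend on the fixed minimum given to thymus spots at or below background. Direction turned for Grm7 oligo 2 (0.90 without scaling, 0.78 centred on control genes), Grm8 oligo 1 (0.57 and 0.18), Grm8 oligo 2 (0.048 without scaling) and the Grm8 oligo pair without thymus array 2 (-0.37; up to 0.90 on leaving out other arrays); the causes were not tested.

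Of all probes, 223 were called, against 117 without scaling, 81 when detection on all 6 arrays was required, 109 with a minimum fold of 1.5 and 108 without the 2 coarse-grid arrays. Leaving out each array gave 108 to 220, or 158 to 221 with the filter of all 6 arrays kept. Centring on control genes gave 2 of the 5 receptor oligos higher in cortex. None was called (0) with detection on all 6 arrays or without the coarse-grid arrays, each of which left 2 to test. Leaving out each array gave 0 to 1 higher in cortex and 0 to 1 in thymus, the latter being Grm8 oligo 2 without thymus array 3. The 0 in cortex arose on leaving out any cortex array, when the filter on 3 arrays left 3 or 4 oligos to test. With the filter of all 6 arrays kept, Grm7 oligo 1 was called each time, but that filter had counted the array left out. The receptors' median difference was 0.90 without scaling, 0.78 centred and -0.18 to 0.61 on leaving out each array (-0.18 to 0.39 with the filter of all 6 arrays kept); without thymus array 1 or 2, Grm7 oligo 2 had too few values to be tested. With the replicate number as a block, 210 probes and Grm7 oligo 1 were called. With the scan setting as a block, 219 probes were called. Grm7 oligo 1 was then higher in cortex by 2.42 with a limma adjusted p of 0.00127. Grm8 oligo 2 differed by -1.11 with an adjusted p of 0.0554 in that fit. The authors' value table of 20 probes held 0 of the 5 oligos, so that alternative was not run. Dim thymus spots limit the value of Grm7 oligo 1 to a bound.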
